A study of Homo sapiens with 24 samples.

Results

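The BCL2 family of apoptosis regulators was followed through 10 genes: the anti-apoptotic BCL2, BCL2L1 (BCL-XL), MCL1 and BCL2A1, the BH3-only genes BCL2L11 (BIM), BMF, BBC3 (PUMA), PMAIP1 (NOXA) and BIK, and the effector BAK1. Every row of the deposited count table whose RefSeq accession belongs to one of these symbols was taken, with the symbol read from the authors' own table or otherwise from the RefSeq annotation. This gave 45 of the 64519 accessions in the table. Of these, 6 accessions, belonging to BCL2, PMAIP1, BIK, BBC3 and BAK1, had more than 1 CPM (counts scaled to a common library size) in at least 2 of the 24 libraries and could be tested, and 32 were at 0 in every library.

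Proteins of this family decide whether the outer mitochondrial membrane is opened. BCL2, BCL-XL, MCL1 and BCL2A1 hold the effectors BAX and BAK1 in check, and the BH3-only proteins either occupy the anti-apoptotic members or act on the effectors, after which cytochrome c leaves the mitochondrion and caspases are activated. In lymphoid cells glucocorticoids are known to kill through this mitochondrial route, with BIM as the member most often named.

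The cells were Nalm6, an established human B-cell acute lymphoblastic leukemia line. They expressed a non-specific shRNA (shNS) or an shRNA against G9a (shG9a, gene EHMT2), GLP (shGLP, gene EHMT1) or HP1γ (shHP1g, gene CBX3), each delivered by lentivirus and used as a puromycin-resistant population, so that all groups, controls included, were transduced and selected. G9a and GLP are histone H3 lysine 9 methyltransferases and HP1γ is a protein that binds methylated lysines, and all of them act as coregulators of the glucocorticoid receptor. Each population received 100 nM dexamethasone (dex), a synthetic glucocorticoid, or ethanol for 8 h, in 3 biological replicates made on different days, which gave 8 groups. The design asks what dex does to these genes in each population, and whether their level in dex depends on the depleted coregulator.

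The libraries held 9289533 to 14387770 counts, with a median of 11132064.5. RNA came from whole cultures, so that fewer cells of a type and less RNA per cell cannot be told apart. The table had no row for EHMT2, which was not analysed here. EHMT1 was lower in shGLP cells by 0.65 (log2) in ethanol and 0.37 in dex. CBX3 NM_016587 was lower in shHP1g cells by 0.50 and 0.61, on 18 to 82 counts per library. CBX3 NM_007276 had means in shHP1g against shNS cells of 2.74 against 3.37 normalized CPM in ethanol and 2.77 against 3.09 in dex. None of these differences passed the adjusted threshold. The paper reports efficient depletion of G9a, GLP and HP1γ at the protein level by immunoblot and at the mRNA level by RT-qPCR. Of 10 B-cell precursor markers, CD79A, IGLL1 and MME had an accession that passed the filter and 7 had a median of at most 3 counts. No T cell or erythroid marker passed. Of 6 myeloid markers LYZ and MPO passed, and CSF1R, S100A8 and S100A9 were at 0 in every library.

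In 3 libraries marker genes stood apart from the other replicates. In dex-treated shG9a cells CD79A was at 1.37 normalized CPM in replicate 2, against 7.35 and 7.52, and IGLL1 was at 25.3, against 59.6 and 47.3. In shHP1g cells replicate 1 of both treatments was high in LYZ (10.5 in ethanol and 8.15 in dex, against 2.36 to 4.17 in the other shHP1g libraries) and in MME NM_001354644 (35.7 and 36.8, against 14.9 to 20.8). For BCL2 NM_000633 and PMAIP1, several results that rest on these libraries are also given without them.

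The other 5 genes had few or no counts. MCL1 had 3 accessions, all with 0 counts in all 24 libraries, which allows up to 3 counts in each, or 0.209 to 0.323 CPM. BCL2L1 had 9 accessions, of which only the non-coding NR_134257 was counted, with 0 to 6 counts per library. BCL2A1 had 1 count in a single library. BMF had 0 to 6 counts per library, all of them on NM_033503. The 18 accessions of BCL2L11 summed to 3 to 14 counts per library, with 14 accessions at 0 throughout.

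Outside the family, low counts were more frequent among genes with several accessions. ACTB, with 1 accession, had 88109 to 139178 counts per library, and GAPDH, with 4 accessions, had 24 to 63 in all. Among genes with 1 mRNA accession 52.3% had an accession that passed the filter, and among genes with 6 or more 20.9% did. How reads in a part shared by several accessions were counted is not given in the sources used here. Whether the low counts of MCL1, BCL2L1, BCL2L11, BMF and BCL2A1 come from this counting or from a low level of mRNA was not tested. BCL2 and BCL2A1 have 2 accessions each. BCL2 was well counted, and in the GENCODE annotation its spliced form has a last exon of its own of 5414 bases. No comparison between groups was made for these 5 genes. In the plot of counts these genes lie at or near the line of 3 counts, while BCL2, PMAIP1, BAK1 and BIK lie far above it.

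**Figure D1:**
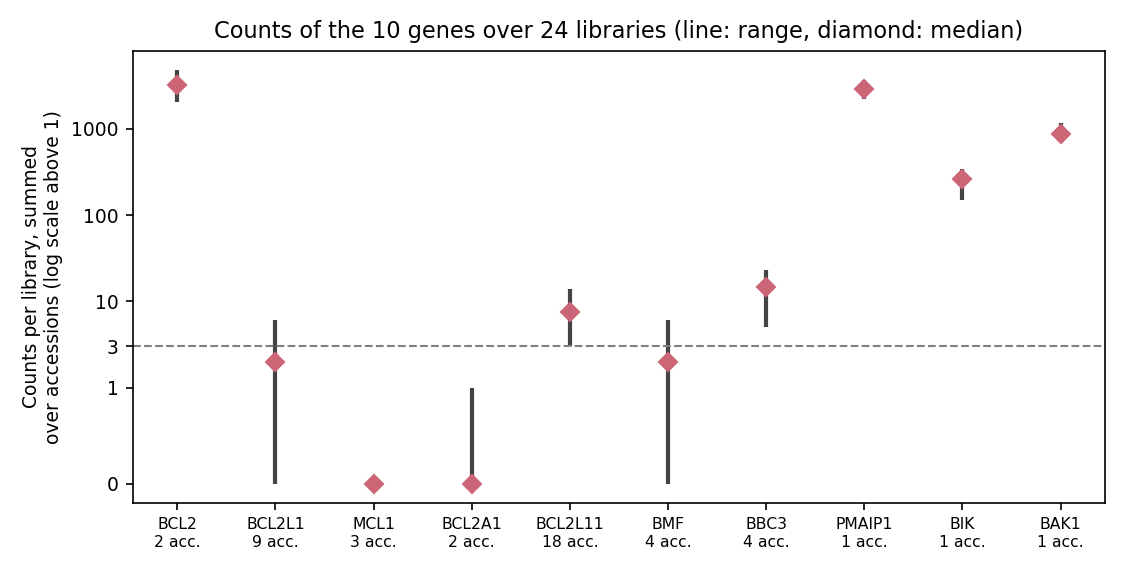
Counts per library of the 10 genes, summed over the accessions of each gene, on an axis that is logarithmic above 1. The line spans the lowest and highest of 24 libraries, the diamond is the median, the number under each name is its accessions, and the dashed line marks 3 counts: BCL2 (2048 to 4737), PMAIP1 (2199 to 3684), BAK1 (715 to 1150) and BIK (149 to 338) lie far above it, and MCL1 is at 0.

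BCL2, the anti-apoptotic founder of the family, lies on the minus strand of chromosome 18 (chr18:60790579-60987361, GRCh37, the build of the files) and had 2 accessions. NM_000633 is the alpha form, which splices a first coding exon to a distant last exon. NM_000657 is the beta form, which reads through that splice donor and ends in the intron. In the GENCODE annotation of GRCh37 the spliced form has a last exon of 5414 bases (60790579 to 60795992) and an intron of 189322 bases before it, and the read-through form extends 4280 bases into that intron. The donor is shown because it is where the forms part. Which positions of each form were counted is not given in the sources used here. It spans chr18:60985300-60985329 and is written 5′ to 3′ on the minus strand, with the 15 coding bases present in both forms in capitals and the 15 bases kept only by the read-through form in lower case.
BCL2 splice donor: GATAACGGAGGCTGGgtaggtgcacttggt
Unspliced RNA of BCL2 also crosses this donor, so that reads counted for NM_000657 can come from the beta form or from unspliced transcripts, which cannot be told apart. The annotation places 3 non-coding genes within BCL2, 1 of them on the opposite strand, and whether the counting used strand is not given in the sources used here.

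BCL2 NM_000633 was lower after dex in every population, and by the most in shNS cells. In shNS cells it stood at 323, 354 and 369 normalized CPM in ethanol (replicates 1 to 3) and at 211, 215 and 217 in dex. In shG9a cells it stood at 392, 350 and 390 in ethanol and at 284, 229 and 279 in dex. In both populations all 3 dex libraries lay below all 3 ethanol libraries, as was the case for 26.3% and 17.2% of all accessions tested in shNS and shG9a cells, in one direction or the other.

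In shGLP cells the values were 304, 298 and 315 in ethanol and 216, 215 and 223 in dex. In shHP1g cells they were 284, 314 and 339 in ethanol and 251, 244 and 241 in dex. Again no dex library reached an ethanol library of its own population (groups apart for 18.2% and 10.7% of all accessions), although in shHP1g cells replicate 1 of both treatments came closest (251 against 284).

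Relative to ethanol of the same replicate, the level of BCL2 NM_000633 in dex was 61.5% ± 3.33 (SD, n = 3) in shNS cells, 69.8% ± 3.96 in shG9a cells, 71.3% ± 0.762 in shGLP cells and 79.1% ± 8.73 in shHP1g cells. Over all accessions tested in shNS cells, 9.95% passed an adjusted p of 0.05 in edgeR's quasi-likelihood test, 5.46% as lower in dex. BCL2 NM_000633 was among them, with a log2 fold change of -0.70 (standard error 0.07, 95% interval -0.84 to -0.56, adjusted p = 8.48e-08), against a median of -0.03 over all accessions. It ranked at place 53 of 10167 by p. The fall was seen in 3 of 3 replicates of each population.

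The same test gave a fall in shG9a cells (-0.52, adjusted p = 1.79e-05), where 6.24% of accessions passed, 2.98% as lower. It gave a fall in shGLP cells (-0.49, adjusted p = 4.03e-05), where 3.29% passed and 1.34% were lower. In shHP1g cells the fall was -0.35 (adjusted p = 0.00274), where 3.22% passed and 1.09% were lower. There the call was lost without replicate 3, where the change was -0.27 with an adjusted p of 0.388. It held without the ethanol or the dex library of replicate 1, in which LYZ and MME were high (-0.41 and -0.37, adjusted p = 5.96e-04 and 0.00498). Averaged over the 4 shRNAs the log2 fold change was -0.51 (standard error 0.03, adjusted p = 3.71e-11), with 23.8% of all accessions passing and 13.4% lower.

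**Figure D2:**
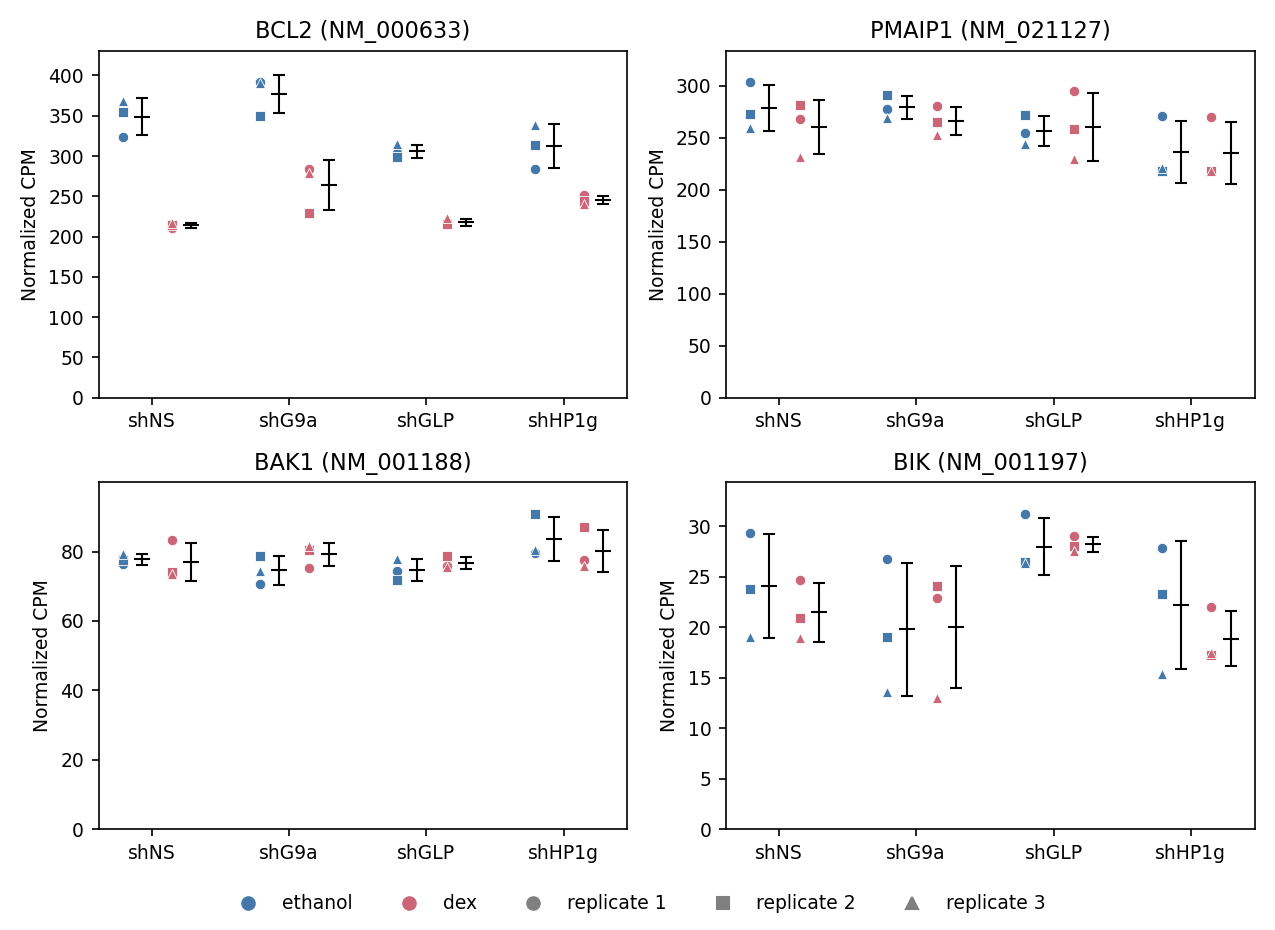
Normalized CPM of BCL2 NM_000633, PMAIP1, BAK1 and BIK in each of 24 libraries by shRNA; colored points are libraries, with the replicate as symbol and the treatment as color, and black bars are the mean and SD of 3 replicates. For BCL2 the dex points lie below the ethanol points in each population, from means of 349 to 214 in shNS cells and from 312 to 245 in shHP1g cells; for the other 3 genes the treatments overlap in each population.

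The order of the dex effects was not separable by a test of the difference between populations. The interaction of dex with shHP1g was 0.36 (log2, 95% interval 0.16 to 0.55), meaning a smaller fall than in shNS cells, but its adjusted p was 0.438, and only 0.0197% of accessions passed in that test. BCL2 NM_000633 was at place 24 of 10167 there. Without the ethanol or the dex library of shHP1g replicate 1 this interaction was 0.29 and 0.33 (adjusted p = 0.895 and 0.440, edgeR). The interactions with shG9a (0.19, interval -0.01 to 0.38, adjusted p = 0.732) and with shGLP (0.21, interval 0.02 to 0.41, adjusted p = 1) did not pass either, and 0.0885% and 0.118% of all accessions did. The intervals thus allow a difference from shNS cells of up to 0.38, 0.41 and 0.55 for shG9a, shGLP and shHP1g, and those with shGLP and shHP1g leave out 0 before adjustment.

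Set against shNS cells in the same treatment, BCL2 NM_000633 was higher in dex-treated shG9a cells. The means were 264 ± 30.8 normalized CPM in shG9a cells and 214 ± 2.88 in shNS cells (SD, n = 3), with all shG9a libraries above all shNS libraries (groups apart for 20.8% of all accessions). The log2 difference was 0.30 (standard error 0.07, adjusted p = 0.00622, edgeR), in a comparison where 8.8% of all accessions passed. The lowest shG9a library, replicate 2, was at 229 and the highest shNS library at 217. This is the library with low CD79A and IGLL1, and without it the difference was 0.39 (adjusted p = 3.12e-04) and the fall with dex in shG9a cells was -0.43 (adjusted p = 9.27e-05). The difference did not pass when only these groups were fitted (0.30, adjusted p = 0.130) or without replicate 3 (0.27, adjusted p = 0.195).

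In dex-treated shHP1g cells BCL2 NM_000633 had a mean of 245 ± 5.19, again with no overlap with shNS cells, a state found for 15.7% of all accessions in that comparison. The log2 difference of 0.20 (interval 0.06 to 0.34) had an adjusted p of 0.114, while 4.09% of all accessions passed. Without shHP1g dex replicate 1 the difference was 0.17 (adjusted p = 0.285, edgeR). The call depended on the library shG9a dex replicate 2, which is in neither group: without it the adjusted p was 0.0343. In dex-treated shGLP cells the mean was 218 ± 4.25 and the log2 difference 0.02 (interval -0.12 to 0.17, adjusted p = 0.920), in a comparison where 5.77% passed.

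In ethanol, NM_000633 stood at 377 ± 23.6 in shG9a cells, 306 ± 8.51 in shGLP cells and 312 ± 27.5 in shHP1g cells, against 349 ± 23.1 in shNS cells. The log2 difference from shNS cells was 0.11 with shG9a (adjusted p = 0.462), -0.19 with shGLP (adjusted p = 0.155) and -0.16 with shHP1g (adjusted p = 0.249). None passed, where 3.73%, 3.61% and 2.91% of all accessions did. Without shHP1g ethanol replicate 1 the shHP1g difference was -0.09 (adjusted p = 0.653, edgeR). The shGLP difference had an interval of -0.33 to -0.05 and no overlap with shNS cells, as 18.3% of all accessions had, and it passed when only these groups were fitted (adjusted p = 0.00838).

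The myeloid marker LYZ moved with the shGLP libraries. It was at 19.4 to 31.2 normalized CPM in the 6 shGLP libraries and at 1.62 to 5.65 in the 6 shNS libraries, with log2 differences of 3.22 in dex (adjusted p = 5.94e-07) and 2.71 in ethanol (adjusted p = 3.21e-06, edgeR). The summed level of the 6 myeloid markers ran from 2.74 to 33.9 CPM over all libraries. Its part in the results of shGLP cells was not tested.

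The beta-form accession NM_000657 was counted 6 to 31 times per library. In shNS cells it was at 2.69, 1.93 and 2.21 normalized CPM in ethanol and at 0.829, 1.29 and 0.728 in dex. All dex libraries lay below all ethanol libraries, and 26.3% of all accessions had groups apart in this comparison, in one direction or the other. The fall of 1.25 on the log2 scale passed the test (standard error 0.26, interval -1.79 to -0.70, adjusted p = 0.00224, edgeR), as 9.95% of all accessions did. Without replicate 1 the adjusted p was 0.102, and without replicate 3 it was 0.113.

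In ethanol NM_000657 was lower in every depleted population than in shNS cells. It was at 1.46, 1.12 and 1.49 in shG9a cells, at 1.13, 0.924 and 1.33 in shGLP cells and at 1.44, 1.19 and 1.16 in shHP1g cells. None of these 9 libraries reached the lowest shNS library (1.93), a separation found for 19.2%, 18.3% and 14.6% of all accessions. These comparisons use the same shNS ethanol libraries (31, 21 and 26 counts), as do the fall with dex in shNS cells and the interactions. They are thus not independent of each other. The log2 difference was -0.74 with shG9a (adjusted p = 0.114) and -0.85 with shHP1g (adjusted p = 0.0777). With shGLP the level decreased by 50.1%, and this difference passed (adjusted p = 0.028, edgeR). LYZ, given above, moved with the shGLP libraries.

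The shGLP difference of NM_000657 was not stable to the fit. Without the replicate block its adjusted p was 0.0625, and it rose to 0.330 without replicate 1. In dex the accession was at 0.787 to 1.30 in shG9a cells, 0.995 to 1.38 in shGLP cells and 0.565 to 1.06 in shHP1g cells, overlapping shNS cells in each case. Its dex effects were -0.44 in shG9a cells (adjusted p = 0.458), 0.04 in shGLP cells (adjusted p = 0.981) and -0.56 in shHP1g cells (adjusted p = 0.507). No interaction passed, with the shGLP one at 1.28 (interval 0.46 to 2.11, adjusted p = 0.631). Averaged over the 4 shRNAs the change was -0.55 (adjusted p = 0.00602, edgeR), and the call was lost on leaving out replicate 1 (-0.59, adjusted p = 0.0503) and on leaving out replicate 3 (-0.38, adjusted p = 0.226).

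**Figure D3:**
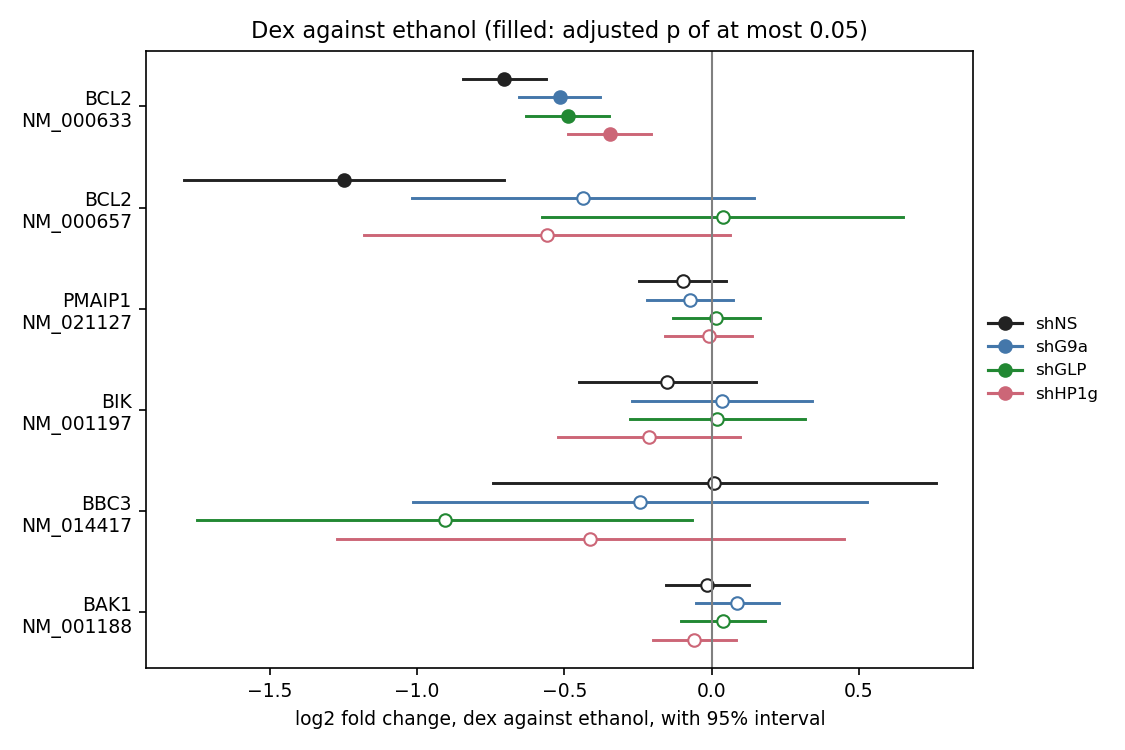
Log2 fold change of dex against ethanol for the 6 accessions that could be tested, in each of 4 populations, with lines for the 95% interval and filled points for an adjusted p of at most 0.05. The 4 points of BCL2 NM_000633 lie between -0.70 and -0.35 and are filled; of the others the shNS point of NM_000657 alone is filled, and the intervals of BBC3 and NM_000657 are wide because they rest on 5 to 31 counts per library.

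No BH3-only gene that could be tested passed the threshold with dex in any population. PMAIP1 (NM_021127, chr18:57567228-57571537, plus strand, GRCh37), whose protein NOXA binds MCL1, was the best counted of them, with 2199 to 3684 counts per library. It was at 303, 273 and 260 normalized CPM in ethanol-treated and at 268, 281 and 231 in dex-treated shNS cells. The treatments overlapped, and the log2 fold change was -0.10 (interval -0.24 to 0.05, adjusted p = 0.486, edgeR). In shG9a, shGLP and shHP1g cells it was -0.07, 0.02 and -0.01. The intervals of all 4 populations lay between -0.24 and 0.16.

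PMAIP1 was lowest in shHP1g cells, where it was at 271, 218 and 221 in ethanol and at 270, 218 and 218 in dex. Replicate 1, in which LYZ and MME were high, stood above the other two in both treatments. Against shNS cells the log2 difference was -0.24 in ethanol (interval -0.39 to -0.09, adjusted p = 0.0745) and -0.15 in dex (interval -0.30 to -0.00, adjusted p = 0.310), lower in 3 of 3 and in 2 of 3 replicates. Without replicate 1 of every group the differences were -0.28 (adjusted p = 0.0575) and -0.23 (adjusted p = 0.0798). The ethanol difference passed only when accessions with low counts were kept (-0.33, adjusted p = 0.0087). The differences of shG9a and shGLP cells from shNS cells lay between -0.12 and 0.03, and none passed.

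BIK (NM_001197, chr22:43506756-43525718, plus strand, GRCh37), a BH3-only protein of the endoplasmic reticulum, had 149 to 338 counts per library. It was at 29.4, 23.8 and 19.0 normalized CPM in ethanol-treated and at 24.7, 20.9 and 18.9 in dex-treated shNS cells. The log2 fold change was -0.15 (interval -0.45 to 0.15, adjusted p = 0.637), and in the depleted populations it ran from -0.21 to 0.04. BIK varied more between replicates than PMAIP1 or BAK1, with 26.7, 19.0 and 13.6 in ethanol-treated shG9a cells.

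BIK was highest in shGLP cells, at 31.2, 26.4 and 26.3 in ethanol and at 29.0, 28.0 and 27.5 in dex. In dex all shGLP libraries lay above all shNS libraries (18.9 to 24.7), as 20.8% of all accessions did in 1 direction or the other. The log2 difference was 0.41 (interval 0.11 to 0.71, adjusted p = 0.117) and did not pass. It passed when only these groups were fitted (0.40, adjusted p = 0.00149). In ethanol the difference was 0.24 (interval -0.06 to 0.53, adjusted p = 0.543). LYZ, given above, moved with the same libraries.

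BBC3 (NM_014417, chr19:47724079-47736023, minus strand, GRCh37), which encodes PUMA, a target of p53, was at 5 to 23 counts per library, with its other 3 accessions at 0. In shNS cells it was at 1.04, 1.57 and 1.87 normalized CPM in ethanol and at 1.47, 1.89 and 1.21 in dex. The log2 fold change of 0.01 had an interval of -0.74 to 0.76, so that the counts are compatible with any change in that range. In shGLP cells it was at 2.36, 1.29 and 1.33 in ethanol and at 1.38, 0.543 and 0.746 in dex. Each replicate was lower in dex, but the treatments overlapped and the log2 fold change of -0.91 (interval -1.75 to -0.07) had an adjusted p of 0.302. The microRNA gene MIR3191 lies within BBC3 on the opposite strand.

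BAK1 (NM_001188, chr6:33540324-33548070, minus strand, GRCh37), an effector that forms pores in the outer mitochondrial membrane, had 715 to 1150 counts per library and no called difference. In shNS cells it was at 76.3, 77.6 and 79.3 normalized CPM in ethanol and at 83.2, 74.0 and 73.5 in dex, with a log2 fold change of -0.02 (interval -0.16 to 0.13, adjusted p = 0.941, edgeR). Over the 4 populations the dex effect ran from -0.06 to 0.09, and over the 6 comparisons of depleted with shNS cells the differences ran from -0.06 to 0.10. None passed, and the widest of these intervals reached 0.25. The pseudogene GGNBP1 overlaps BAK1 on the opposite strand.

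**Figure D4:**
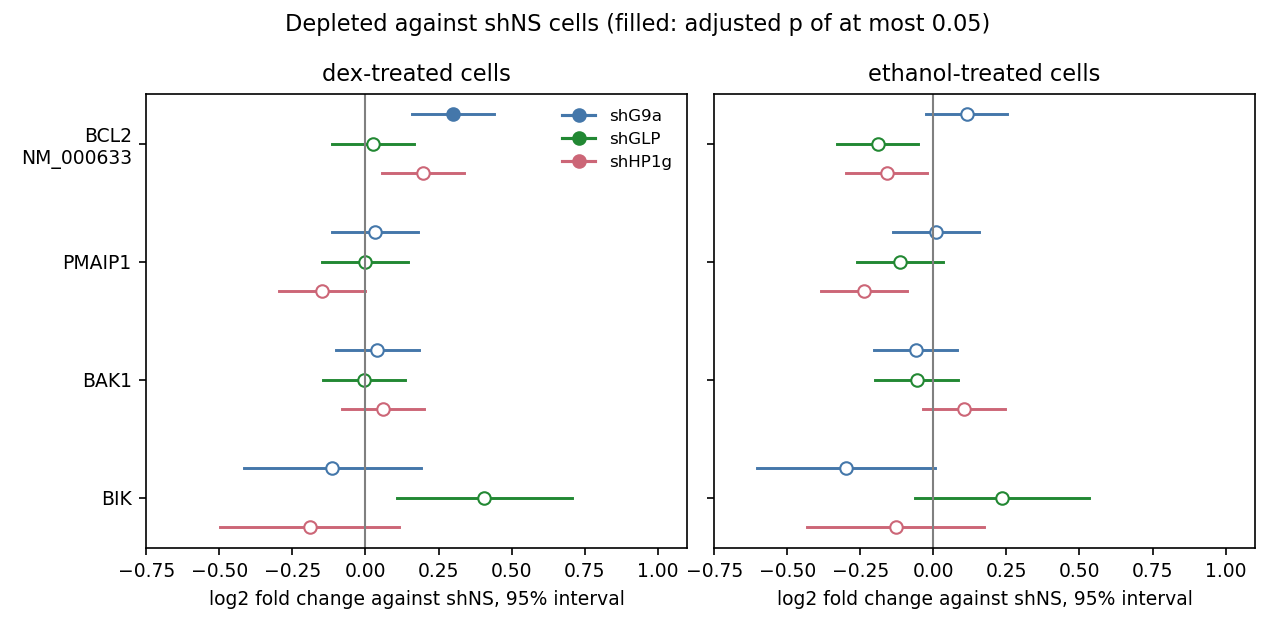
Log2 fold change of shG9a, shGLP and shHP1g cells against shNS cells for 4 accessions, in dex at left and in ethanol at right, with 95% intervals and filled points for an adjusted p of at most 0.05. The filled point is BCL2 NM_000633 in dex-treated shG9a cells at 0.30; the point of BIK in dex-treated shGLP cells lies further out, at 0.41, with a wider interval.

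The balance between BCL2 and the effector or BH3-only genes can be given as a ratio of counts within a library, which does not depend on scaling between libraries and is not a ratio of molecules, since the accessions differ in length. BCL2 NM_000633 to BAK1 went from 4.49 ± 0.216 (SD, n = 3) in ethanol to 2.79 ± 0.226 in dex in shNS cells. It went from 5.08 ± 0.571 to 3.35 ± 0.471 in shG9a cells, from 4.10 ± 0.0578 to 2.84 ± 0.106 in shGLP cells and from 3.74 ± 0.407 to 3.07 ± 0.238 in shHP1g cells. In each population the dex libraries lay below the ethanol libraries. This was already so for NM_000633 alone, while the treatments overlapped for BAK1 in each population.

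The ratio of BCL2 NM_000633 to PMAIP1 went from 1.26 ± 0.179 to 0.828 ± 0.0937 in shNS cells, from 1.35 ± 0.132 to 0.994 ± 0.123 in shG9a cells, from 1.20 ± 0.0981 to 0.845 ± 0.121 in shGLP cells and from 1.34 ± 0.258 to 1.05 ± 0.105 in shHP1g cells. In shHP1g cells the lowest ethanol library (1.05) lay below the highest dex library (1.12), and in the other populations the treatments did not overlap. The ratio of BCL2 NM_000633 to BIK was more variable. It went from 15.1 ± 4.17 to 10.1 ± 1.46 in shNS cells, where the treatments overlapped. In shG9a cells it was at 14.6, 18.4 and 28.8 in ethanol and at 12.4, 9.49 and 21.4 in dex, lower in each replicate, and in shGLP cells all dex libraries (7.43 to 8.09) lay below all ethanol libraries (the lowest at 9.73). In shHP1g cells it was higher in dex in replicates 1 (10.2 to 11.4) and 2 (13.5 to 14.2) and lower in replicate 3 (22.1 to 13.8). The treatments overlapped for PMAIP1 and for BIK alone in each population. These ratios were not tested, and how often ratios of other accessions lie apart was not computed.

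Other genes of the apoptosis pathway were read from lists of BCL2 relatives, caspases and their activators, inhibitors of apoptosis and regulators of the family. Of 11 further BCL2 relatives, BAX, BOK and BCL2L15 could be tested and none passed in the dex comparison of shNS cells. Their median log2 fold change there was -0.32, beside -0.03 over all accessions, on 14 to 50 counts per library. BAX, the effector that pairs with BAK1, was represented by 1 of its 9 accessions and its change was -0.04 (adjusted p = 0.961).

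Of 13 genes of the apoptosome and caspases, 5 could be tested, and CYCS, which encodes the cytochrome c that BAX and BAK1 release, was the gene that passed in shNS cells. It was at 541, 579 and 617 normalized CPM in ethanol and at 389, 479 and 442 in dex. The groups did not overlap, as for 26.3% of all accessions, and the log2 fold change was -0.41 (adjusted p = 3.44e-04, edgeR). In shG9a cells it was -0.28 and passed (adjusted p = 0.018), and in shGLP and shHP1g cells it was -0.23 (adjusted p = 0.0897) and -0.22 (adjusted p = 0.120), short of the threshold.

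Of 5 inhibitor of apoptosis genes, BIRC2, BIRC3 and BIRC6 could be tested. BIRC2, which encodes a ubiquitin ligase that restrains cell death, rose in shNS cells from 2.52, 2.03 and 1.96 to 4.24, 3.96 and 3.48 normalized CPM (log2 fold change 0.84, adjusted p = 0.00513). In dex-treated shG9a cells it was lower than in shNS cells (log2 difference -0.63, adjusted p = 0.0364, edgeR), where 8.8% of all accessions passed. Its relative BIRC3 passed as higher in dex in shNS cells (adjusted p = 0.0074), but on 1, 1 and 3 counts in ethanol and 16, 8 and 11 in dex, too few for a fold change.

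Of 11 regulators, 6 could be tested. DDIT3, a stress-induced transcription factor that acts on BCL2 family genes, was lower in dex in shNS cells (adjusted p = 0.0408), on 18, 7 and 11 counts in ethanol and 5, 3 and 3 in dex. FOXO1, a transcription factor with BH3-only target genes, did not pass with dex. It was lower in dex-treated shG9a than shNS cells, with means of 326 ± 35.1 and 401 ± 34.0 (log2 difference -0.29, adjusted p = 0.0158, edgeR). In that comparison 8.8% of all accessions passed. The replicates were at 322, 293 and 363 in shG9a cells and at 369, 396 and 437 in shNS cells. The lowest, shG9a replicate 2, is the library with low CD79A and IGLL1, and FOXO1 was not tested without it.

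The accessions whose replicate-centred log2(CPM + 1) ran most nearly parallel to BCL2 NM_000657, the member with the largest fall in shNS cells, were TIMM17A (Pearson r = 0.84), FAR1 (0.82) and HACD3 (0.79), among 5605 accessions compared over 24 libraries. For BCL2 NM_000633 they were SMARCA5 (0.92), RGS16 (0.91) and CBX2 (0.91). In shNS cells dex lowered SMARCA5 (log2 fold change -0.24), RGS16 (-0.70) and CBX2 (-0.43), each past the adjusted threshold. These correlations describe libraries that share treatments and depths. No member rose with dex past the threshold in any population, so that no such list was made for a rise.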

How the data were processed

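RNA from 24 cultures was sequenced. Per the labels and the study's methods, the authors aligned the reads with HISAT2 (build hg19, that is GRCh37) and made 1 count per RefSeq accession. The counting mode, strand setting and RefSeq release are not given in the sources used here. The deposited table, although named for CPM, holds whole-number counts whose totals differ between libraries, and these counts were used as deposited. The authors also deposited log2 fold changes and FDR values from edgeR, which were not used, and gene symbols, which were.

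The test was edgeR's quasi-likelihood test (edgeR 4.0.16, R 4.3.3). Accessions with more than 1 CPM in at least 2 libraries were kept (10167), scaled by upper quartile factors, and fitted with 8 groups and the replicate number as a block. The block takes the place of the study's RUV step, because the labels put the replicates on different days. That a number marks the same day in each group is assumed. Libraries of different groups with the same number were correlated in their deviations from the group means of log2(CPM + 1). Over 84 such pairs of libraries the correlations were -0.0025 to 0.639, above 0.1 in 70. Adjustment followed Benjamini and Hochberg and covered all accessions tested, and an accession was called at an adjusted p of at most 0.05. Replicates differed by more than sampling noise (chi-square per degree of freedom 3.27 to 36.2). With 3 libraries a group, intervals given are those of the fit, and floors of 3 counts cover counting error only.

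The members, the pathway and marker lists and the tests were chosen with earlier results of these data known. All members were described. From each pathway list at most 4 genes that passed in the dex comparison of shNS cells were to be named, largest first, and the genes most parallel to the member with the largest called rise and fall. BAX, FOXO1, the accessions parallel to NM_000633 and the remaining comparisons of named pathway genes were added after their values were seen. On simulated data (10167 accessions, 200 changed, dex in shNS cells) 60.2% of changes of 1 and 36.6% of changes of 0.5 (log2) were recovered. Where there were at least 50 counts 95.7% and 71.9% were recovered, and 5.05% of calls were false. The simulated counts held no difference between replicate numbers and none between the other groups. These rates need not hold for the measured libraries, which had both. The alternatives were no replicate block, TMM factors, DESeq2 1.42.0, no filter, a mean of at least 5 CPM, only the groups compared, counts summed per gene, and leaving out each replicate number and each library. Positions and exons are from GENCODE v44lift37.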

Additional observations from a re-analysis of the deposited data

Results flagged for a closer look

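In 3 comparisons every replicate moved one way in one condition and every replicate the other way in another. The search covered the 6 testable accessions, with every pair of populations for the dex effect and every depletion for the 2 treatments. It was not run over all accessions, so how often such a pattern occurs among them is not known. BCL2 NM_000633 was higher in shHP1g than in shNS cells in each replicate in dex (mean log2 difference 0.20) and lower in each replicate in ethanol (-0.16), a gap of 0.36. The interaction test of this gap had an adjusted p of 0.438 (edgeR), and of 0.0847 to 1 under the alternatives. BCL2 NM_000633 was likewise higher in shGLP than in shNS cells in each replicate in dex (0.02) and lower in ethanol (-0.19), a gap of 0.21. The interaction test of this gap had an adjusted p of 1 (edgeR), and of 0.0804 at the lowest under the alternatives. Both gaps use the same shNS libraries. The dex value of 0.02 is smaller than its standard error of 0.07. BAK1 was higher in dex in each replicate of shG9a cells (106.8%, 102.2% and 109.9% of ethanol) and lower in each replicate of shHP1g cells (97.4%, 96.0% and 94.3%), so that the effect in shHP1g cells minus that in shG9a cells was -0.15 (log2). This difference between depleted populations was not tested. The groups of 3 libraries are too small for a test of whether a single library stands apart. The 3 libraries named above were noted from their marker values, without a test.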

How the results depend on the processing

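Each count of members called was 0 or 1, so that 1 call decides it. The call of BCL2 held under all 34 alternatives for dex in shNS, shG9a and shGLP cells and for dex averaged over the 4 shRNAs, and the counts for shG9a against shNS cells in ethanol and for the 3 interactions were 0 under all 34. Leaving out libraries gave 0 to 1 members called for dex in shHP1g cells (0 without replicate 3), for shG9a against shNS cells in dex (0 without replicate 3), for shHP1g against shNS cells in dex (1 without shG9a dex replicate 2) and for shGLP against shNS cells in ethanol (0 in 8 cases). The fit of only the groups compared gave 0 members for shG9a against shNS cells in dex and 1, BIK, for shGLP. Keeping low counts gave 1, PMAIP1, for shHP1g against shNS cells in ethanol. For shGLP against shNS cells in ethanol, where NM_000657 gave the call, 0 members were called without the replicate block, with DESeq2, without the filter and with counts summed per gene. With a mean of at least 5 CPM the call there was that of NM_000633 (log2 difference -0.21, adjusted p = 0.0495). The replicate block, checked as a pairing of the libraries, changed no other call of a member, but moved the calls over all accessions for dex in shNS cells from 518 without it to 1012. The cause of these changes was not tested. For NM_000657 alone, the change with dex averaged over the 4 shRNAs and that in shNS cells did not pass without replicate 1 or without replicate 3. No fold change listed for BCL2 changed sign. For NM_000633 the dex effect ran from -0.76 to -0.66 in shNS cells and from -0.43 to -0.27 in shHP1g cells. NM_000657 and BBC3 are limited by their depth, and 5 of the 10 genes could not be tested.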
